A study of Homo sapiens with 8 samples.

Results

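The genes examined were the 10 named subunits and initiation factors of RNA polymerase I (Pol I) in a list set by symbol: the subunits POLR1A, POLR1B, POLR1C, POLR1D and POLR1E, the initiation factor RRN3, the architectural factor UBTF, and the promoter selectivity factors TAF1A, TAF1B and TAF1C. Membership rested on the gene names and not on any measured value. Each of the 10 symbols matched a single Ensembl identifier among the 58395 genes listed, and all 10 passed the filter on low counts, which kept 16503 genes.

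Pol I transcribes the ribosomal DNA repeats in the nucleolus and makes the precursor of the large ribosomal RNAs. At the promoter, selectivity factor SL1, a complex of TBP with its associated factors TAF1A, TAF1B, TAF1C and TAF1D, is bound together with UBTF, and RRN3 links the polymerase to SL1 so that initiation can start. Fibrillarin, encoded by FBL, acts on the product: it methylates ribose groups of the precursor rRNA as it is made and processed. Pol I output follows growth signals and is high in many leukaemias. Ribosomal RNA itself was not analysed here, so the values below concern the mRNAs that encode the machinery and not its activity.

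The series sequenced RNA from OCI-AML3, an established human acute myeloid leukaemia line, after sucrose gradient separation of ribosomes. Every library came from cells given a lentiviral short hairpin and then cycloheximide, which stops ribosomes on their mRNAs. The hairpin was shCT in the libraries with the genotype label WT (titles CT1 and CT2), called control here, and shFBL in those labelled FBL knockdown (titles U1 and U2). A part of each cleared lysate was kept as input RNA and another part was run on the gradient for polysome RNA, which gives 4 groups of 2 libraries and 8 libraries in all. The gradient fractions that were combined, and the origin of the libraries numbered 1 and 2 (separate infections or repeats of the same cells), are not stated in the labels. P-values below thus reflect only how much these libraries vary, in part perhaps for technical reasons.

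The depth was 22171255 reads assigned to genes in polysome knockdown 2, the shallowest library, and 43118190 in input knockdown 2, the deepest. Between 18323 and 18440 genes were detected in each input library, and between 14344 and 15910 in each polysome library. FBL did not follow the labels. Its input level was 250 CPM (reads of the gene scaled to a common library total) in CT1 and 252.7 CPM in U1, against 88.1 CPM in CT2 and 84.2 CPM in U2. In polysome RNA it was 497.8 and 498.6 CPM in the libraries numbered 1 and 163.4 and 165.3 CPM in those numbered 2. The log2 difference by label was -0.01 (SE 0.69) in input and 0.01 (SE 0.69) in polysome RNA (adjusted p 1 in input RNA, edgeR). Each comparison by label below is thus of the libraries labelled knockdown with those labelled WT, whose FBL levels overlapped. Whether titles or genotype labels were exchanged between libraries was not tested, and values by label hold only for the labels as given. The comparison of polysome with input RNA takes the mean over both labels. Its SE and adjusted p still come from the spread within groups set by label. FBL itself was higher in polysome RNA by 0.89 to 0.99 on the log2 scale within each lysate, yet it was not called. Of 12 myeloid marker genes, 11 or 12 were above 1 CPM in each library, with a summed level of 1350 to 2040 CPM. Erythroid and megakaryocyte markers summed to at most 6.75 CPM and lymphoid markers to at most 13.5 CPM. Stroma and epithelium markers summed to 39.3 to 73.2 CPM, nearly all of it PECAM1 (38.6 to 71.1 CPM), while EPCAM and CDH1 were at 0 in all 8 libraries.

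Sequences at the starts of the genes are shown first because the 3 SL1 factors of the list shared a feature there. The RefSeq promoter table (GRCh38.p14), which spans 250 bases before to 50 bases after each annotated start, held 14 starts for 9 of the 10 genes. POLR1E had no entry. The starts of TBP and TAF1D, the other parts of SL1, are outside the list and were not examined separately. The letters CCGGAAG, the core bound by ETS family factors, were searched on both strands. They lay within 25 bases of a start in 3 genes, TAF1A, TAF1B and TAF1C, and in 4 of the 14 windows, against 3.67% of the 35116 windows in the table. Overlapping windows of TAF1B are among these 4 and share a match. Below are 50 bases around 1 start of each, 25 on either side, read along the gene's strand with CCGGAAG or its reverse complement CTTCCGG in capitals.
TAF1A, chr1:222589909-222589958, minus strand: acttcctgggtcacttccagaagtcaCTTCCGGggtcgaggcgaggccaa
TAF1B, chr2:9843449-9843498, plus strand: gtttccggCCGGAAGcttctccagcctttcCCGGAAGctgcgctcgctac
TAF1C, chr16:84187033-84187082, minus strand: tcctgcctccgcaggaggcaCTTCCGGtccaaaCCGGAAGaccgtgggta
TAF1B and TAF1C each held the letters 2 times in this window, and TAF1A held them once. Over the whole 300 bases the same letters were found in 9 of the 14 windows and 6 of the 9 genes (the 3 above with POLR1B, POLR1C and RRN3), against 10.3% of all windows. CCAAT, on either strand, was present in 7 of the 14 windows and 5 of the 9 genes, against 34.6% of all windows. Neither the E-box letters CACGTG nor TATAAA were present in any of the 14 windows, against 7.26% and 11.5% of all windows. A match is a description of the letters and does not show that a factor binds there.

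The starts of genes whose mRNA was higher or lower in polysomes, described further on, are shown as 30 bases around 1 annotated start of each, with the first transcribed base of the annotation in capitals. A C at this base followed by pyrimidines is the mark of the TOP mRNAs, whose translation is controlled together and which encode ribosomal proteins.
UBTF, chr17:44220868-44220897, minus strand: cgcgtggggctcgccAttagccgtcgctcc
POLR1A, chr2:86105872-86105901, minus strand: accgcttccgcgcgcAagcgcacgttgaat
POLR1C, chr6:43517074-43517103, plus strand: cgagatagaacctctAgtctcgtggagaga
POLR1D, chr13:27621877-27621906, plus strand: cttccgtcggtcggtCcttgcttcctgctt
TAF1B, chr2:9843459-9843488, plus strand: ggaagcttctccagcCtttcccggaagctg
UBTF, POLR1A and POLR1C began with A at the starts shown. The table held another start for UBTF, which began with G, and another each for POLR1D and TAF1B, which both began with A, so the first base did not part the higher from the lower genes. One of the 14 starts, the TAF1B start shown, had a C followed by at least 4 pyrimidines, as did 4.07% of all windows in the table. The POLR1D start shown also began with C, but its run of pyrimidines ended after 4 bases with the C included. The starts are those of the annotation, and which of them OCI-AML3 cells used was not measured.

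Levels between genes were compared as CPM per kilobase of exon, using the merged exons of each gene in GENCODE v29. Merged exons pool all annotated transcripts and can be longer than the mRNA present. They came to 11210 bases for POLR1D and 2512 for POLR1E, whose longest coding sequences have 133 and 481 codons. Which transcripts the cells held was not measured, so the order below holds for this length only. UBTF, an HMG-box protein that bends and coats the rDNA, was the highest of the 10 in input RNA at 22.1 ± 0.982 CPM per kilobase (SD, n = 4 libraries). POLR1E, the subunit that pairs with POLR1G and takes part in initiation and elongation, came next at 16.7 ± 2.12 CPM per kilobase. RRN3 followed at 12.9 ± 1.1 CPM per kilobase. The ranges of these 3 did not overlap with one another or with the gene below. TAF1C (7.36 CPM per kilobase) and POLR1D (7.34 CPM per kilobase) could not be ordered, since their 4 libraries overlapped. POLR1A, the largest subunit, POLR1B, the second largest, which forms the active centre with it, and POLR1C, an assembly subunit shared with RNA polymerase III, lay together at 4.63 to 5.56 CPM per kilobase with neighbouring ranges that overlapped. TAF1B and TAF1A were lowest at 1.85 ± 0.527 and 1.09 ± 0.275 CPM per kilobase. In polysome RNA UBTF (38.2 CPM per kilobase) and POLR1E (19.1 CPM per kilobase) again led, TAF1B (0.684 CPM per kilobase) and TAF1A (0.491 CPM per kilobase) were again lowest, and the 6 genes between ran from 5.40 to 10.3 CPM per kilobase with each pair of neighbours overlapping. The mRNAs of SL1 subunits were thus not alike in level: TAF1C was several times more abundant per kilobase than TAF1A and TAF1B in both fractions.

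**Figure D1:**
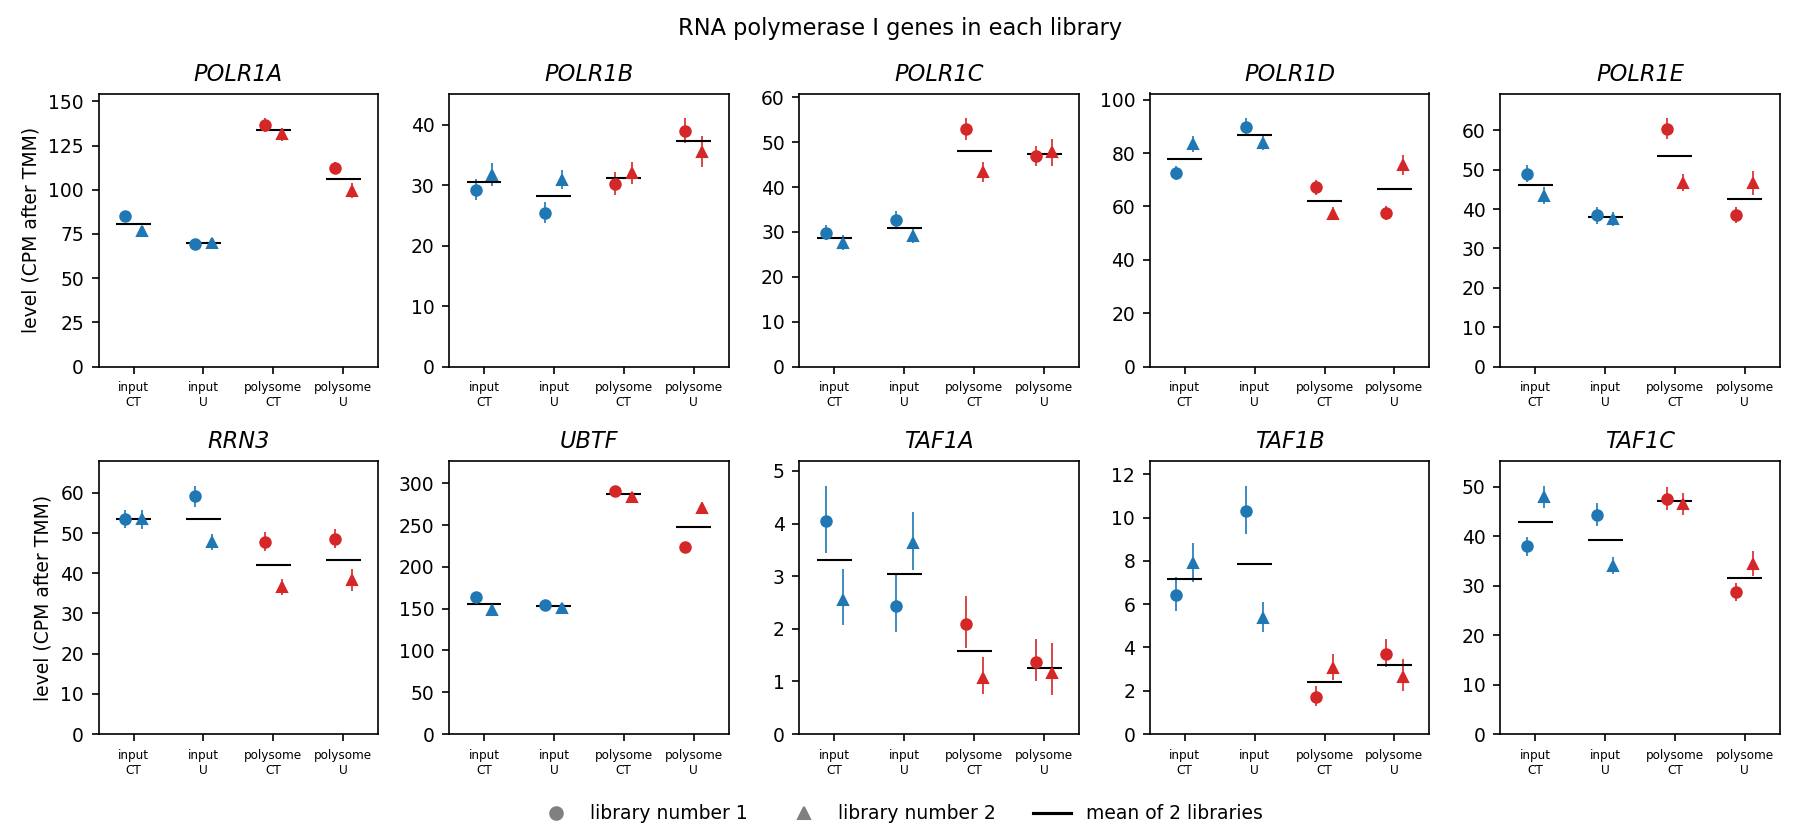
Level of each of the 10 Pol I genes in the 8 libraries, in CPM after TMM normalization on a linear axis that starts at 0 and differs between panels. Circles and triangles are the libraries numbered 1 and 2, blue is input and red polysome RNA, thin vertical bars are 95% intervals for counting error only, and horizontal lines are means of 2 libraries; UBTF, POLR1A and POLR1C lie higher in polysome than in input RNA, and TAF1A and TAF1B lie lower.

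Polysome RNA was compared with input RNA over the 4 lysates to ask which of these mRNAs were over- or under-represented on ribosomes relative to the other mRNAs of the library. UBTF, POLR1C and POLR1A were higher in polysome RNA, POLR1D and TAF1B were lower, and POLR1B, POLR1E, RRN3, TAF1A and TAF1C did not pass an adjusted p of 0.05 (edgeR quasi-likelihood test, Benjamini-Hochberg). That is 3 of 10 higher and 2 of 10 lower, where 20% of all tested genes were higher and 22.8% were lower, and 5 of 10 called in either direction, where 42.9% were, so the count of called genes was near the background. An unadjusted p under 0.05 was reached by 7 of the 10 and by 50.6% of all genes. All 4 polysome libraries lay above all 4 input libraries for those same 3 genes, UBTF, POLR1C and POLR1A (17.7% of all genes), and below them for TAF1A and TAF1B (22.7% of all genes). The median log2 fold change of the 10 was 0.05, against -0.22 for all 16503 genes.

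Among the polymerase subunits, POLR1A encodes the catalytic subunit that holds much of the active site. Its level in lysates CT1, CT2, U1 and U2 was 85.1, 76.5, 69.4 and 69.8 CPM in input RNA and 136.4, 131.5, 112.2 and 99.5 CPM in polysome RNA. Each polysome library was above each input library, and the log2 ratio within a lysate ran from 0.51 in U2 to 0.78 in CT2. The fitted log2 fold change was 0.67 (SE 0.08, adjusted p 0.000121, edgeR). The gene lies on the minus strand at chr2:86020216-86106155 (GRCh38), and none of its 13519 exon bases overlaps another gene.

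POLR1C forms with POLR1D the platform on which both Pol I and Pol III assemble, and variants in either gene cause Treacher Collins syndrome. POLR1C was at 29.8, 27.6, 32.8 and 29.1 CPM in the input RNA of CT1, CT2, U1 and U2 and at 52.8, 43.3, 46.8 and 47.7 CPM in their polysome RNA. The groups did not overlap, and the log2 fold change was 0.68 (SE 0.12, adjusted p 0.000892, edgeR). POLR1C (chr6:43509702-43562419, plus strand) shares 18.2% of its exon bases with other genes, all on the opposite strand. These are an antisense gene (7.06%), XPO5 (6.27%), LRRC73 (2.52%) and YIPF3 (2.32%). Without a stated strand setting reads of these stretches cannot be told apart.

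POLR1D moved the other way from its partner. Its input levels were 72.4, 83.4, 89.8 and 83.8 CPM and its polysome levels 67.1, 57.2, 57.5 and 75.4 CPM in the same order of lysates. The polysome level was lower than the input level of its own lysate in all 4, although polysome U2 exceeded input CT1, so the fractions overlapped. The log2 fold change was -0.36 (SE 0.11, adjusted p 0.0292, edgeR). This call was lost in each of 4 fits that left out 1 library (input control 2, input knockdown 1, polysome control 2 or polysome knockdown 1), where the adjusted p was 0.0636 to 0.0892, and also when libraries were scaled by relative log expression (-0.32, adjusted p 0.055). POLR1D was 0.13 below the median of all genes on the log2 scale, and 0.14 below it when GC content and length were fitted out, although its own value then changed sign with that median (0.14, adjusted p 0.473, edgeR). It lies at chr13:27620742-27744237 on the plus strand.

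POLR1B and POLR1E did not pass the test. POLR1B was at 25.4 to 31.7 CPM in input and 30.2 to 38.9 CPM in polysome RNA, with a log2 difference of 0.22 (SE 0.12, adjusted p 0.179, edgeR). Its ratio differed between lysates, from 0.01 in CT2 to 0.60 in U1. POLR1E was at 37.4 to 49.0 CPM in input and 38.5 to 60.4 CPM in polysome RNA, with a log2 difference of 0.19 (SE 0.12, adjusted p 0.245, edgeR). POLR1B lies at chr2:112541915-112577150 and POLR1E at chr9:37485935-37503697, both on the plus strand, with no exon base shared with another gene.

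Among the initiation factors, UBTF had the largest increase of the 10. It was at 164.0, 148.3, 154.7 and 151.0 CPM in the input RNA of CT1, CT2, U1 and U2, and at 291.3, 283.7, 224.4 and 270.1 CPM in their polysome RNA. The lowest polysome library, U1, was still above every input library. The log2 fold change was 0.79 (SE 0.08, adjusted p 3.4e-05, edgeR), and the ratio within a lysate ran from 0.54 in U1 to 0.93 in CT2. UBTF lies on the minus strand at chr17:44205033-44221626, with 3.6% of its exon bases shared with other genes.

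TAF1B, the SL1 subunit that resembles the Pol II factor TFIIB, had the largest decrease. It was at 6.44, 7.88, 10.3 and 5.37 CPM in input RNA and at 1.71, 3.06, 3.71 and 2.65 CPM in polysome RNA. These levels rest on 251 to 348 reads in input and 55 to 133 reads in polysome libraries. The fractions did not overlap, and the log2 fold change was -1.44 (SE 0.33, adjusted p 0.00584, edgeR). This call was lost when GC content and length were fitted out (-0.47, adjusted p 0.285, edgeR). TAF1B lies at chr2:9843354-9934416 on the plus strand, with no exon base shared with another gene.

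TAF1A, another SL1 subunit, was likewise lower in every polysome library than in every input library. It was at 4.04, 2.56, 2.43 and 3.64 CPM in input and 2.08, 1.08, 1.36 and 1.16 CPM in polysome RNA, from 24 to 170 reads per library. Its log2 difference of -1.16 had an SE of 0.45 and missed the threshold (adjusted p 0.0618, edgeR). It passed with DESeq2 (-1.13, adjusted p 0.0416) and in the edgeR fits without polysome control 1 (-1.44, adjusted p 0.0411) or polysome knockdown 1 (-1.23, adjusted p 0.0486). TAF1A lies at chr1:222557902-222589933 on the minus strand, with 3.8% of its exon bases shared with an antisense gene, TAF1A-AS1.

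TAF1C, the third associated factor of SL1, behaved unlike TAF1A and TAF1B before GC and length correction. It was at 37.9, 47.9, 44.3 and 34.0 CPM in input and 47.5, 46.4, 28.6 and 34.3 CPM in polysome RNA. The ratio within a lysate ranged from -0.62 in U1 to 0.32 in CT1 on the log2 scale, and the fitted difference was -0.09 (SE 0.13, adjusted p 0.617, edgeR). With GC content and length fitted out, TAF1C was called lower (-0.44). It then lay 0.72 below the median of all genes, with TAF1B 0.74 and TAF1A 0.21 below it. TAF1C (chr16:84177847-84187070, minus strand) shares 8.1% of its exon bases with DNAAF1.

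RRN3, the factor that makes Pol I competent to initiate, was at 53.4, 53.4, 59.1 and 47.9 CPM in input and 47.8, 36.5, 48.6 and 38.2 CPM in polysome RNA. It was lower in the polysome RNA of each of the 4 lysates, by 0.16 to 0.54 on the log2 scale, but its log2 difference of -0.32 (SE 0.13) missed the threshold (adjusted p 0.0775, edgeR). With the lysate as a block, which compares each polysome library with the input of the same lysate, RRN3 passed (-0.33, SE 0.11, adjusted p 0.0147, edgeR). It also passed in the fits without input knockdown 2, polysome control 1 or polysome knockdown 1 (adjusted p 0.0281 to 0.0439). Like POLR1D, RRN3 was close to the median of all genes, 0.10 below it. The gene lies on the minus strand at chr16:15060022-15094317. RRN3 has pseudogene copies to which its reads could be misplaced: RRN3P1, RRN3P2 and RRN3P3 were at 0 to 9.52 CPM in the 8 libraries and RRN3P4 was at 0, while RRN3 itself was at 36.5 to 59.1 CPM.

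**Figure D2:**
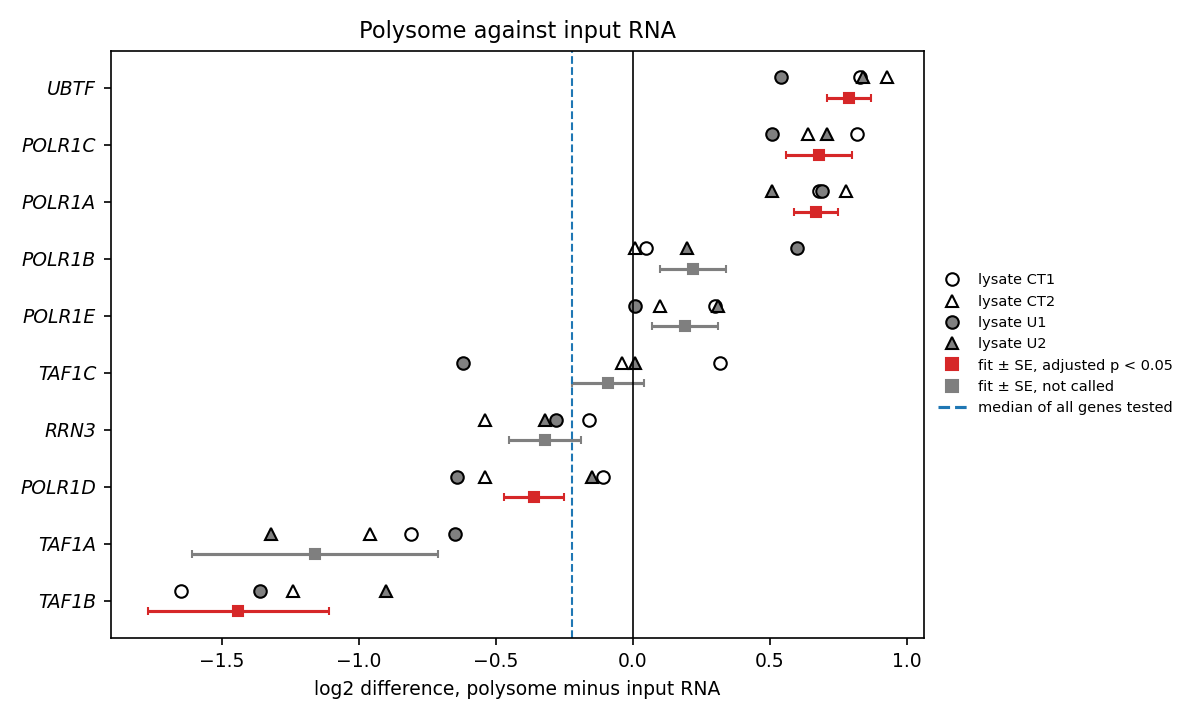
Log2 difference of polysome minus input RNA for each of the 10 genes, with the ratio in each of the 4 lysates (open symbols CT1 and CT2, grey symbols U1 and U2; 0.5 CPM added to each level) above the fitted log2 fold change with its SE (squares, red where the adjusted p was under 0.05). UBTF, POLR1C and POLR1A lie to the right of 0.5 in all 4 lysates, TAF1A and TAF1B lie to the left of -0.6, and POLR1D and RRN3 sit close to the dashed line, the median of all genes at -0.22.

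GC content of the transcripts was set beside these differences. The transcripts of UBTF, POLR1A and POLR1C, the 3 that were higher, had a mean GC content of 55.9%, 52.2% and 48.7%, and those of TAF1A, TAF1B, RRN3 and POLR1D had 40.2%, 42.0%, 42.5% and 45.6%. Among the other genes not called, POLR1B had 46.3%, POLR1E 50.2% and TAF1C, the highest of the 10, 62.9%. Apart from TAF1C, the genes at 46.3% or more had positive log2 differences and those at 45.6% or less had negative ones. Whether GC content underlies the differences was not tested. When GC content and exon length were fitted out of each library, the median of all genes moved from -0.22 to 0.28, and the calls over all genes moved from 3306 higher and 3766 lower to 4806 higher and 1081 lower. UBTF, POLR1A and POLR1C remained called, at 0.66, 0.70 and 1.09. Relative to the median of all genes they were 1.01, 0.89 and 0.90 above it before the correction and 0.38, 0.43 and 0.81 above it after. TAF1B fell out of the calls (-0.47, adjusted p 0.285), RRN3 changed its direction (0.63, adjusted p 0.00269), and POLR1D and TAF1A went from below 0 to 0.14 and 0.06 without passing the test. POLR1B (0.78), POLR1E (0.81) and TAF1C (-0.44, adjusted p 0.036) became called. Relative to the median of all genes, POLR1D stayed 0.13 and 0.14 below it, TAF1A went from 0.94 to 0.21 below it and TAF1B from 1.22 to 0.74 below it. RRN3 went from 0.10 below to 0.35 above the median, and TAF1C from 0.13 above to 0.72 below. UBTF, POLR1A and POLR1C were thus above the median, and TAF1A and TAF1B below it, with and without the correction. POLR1D was slightly below it in both fits, but its place moved with the filter. It was 0.13 above the median without a filter and 0.45 below it with the filter at a mean of 10 CPM.

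The rest of the Pol I machinery was split as well. Of 7 other Pol I genes tested, POLR1H, a small subunit that aids RNA cleavage, was higher in polysome RNA by 1.06 (SE 0.12, adjusted p 5.25e-05, edgeR), though 24.5% of its exon bases overlap POLR1HASP on the opposite strand. POLR1F, a stalk subunit, was lower by -0.64 (SE 0.10, adjusted p 0.000651, edgeR). TAF1D, the remaining SL1 factor, was lower by -2.04 (SE 0.11, adjusted p 1.29e-06, edgeR), from 114.3 to 131.6 CPM in input to 26.1 to 33.7 CPM in polysome RNA. TAF1D hosts small nucleolar RNAs in its introns, and 17.3% of its exon bases overlap other genes. The other 4 (POLR1G, TBP, TTF1 and CAVIN1) were not called. TBP, the core of SL1, had a log2 difference of -0.61. Of the 5 subunits that Pol I shares with Pol II and Pol III, all 5 were called: POLR2E (0.90), POLR2H (0.82), POLR2L (0.70) and POLR2F (0.62) were higher and POLR2K (-1.01) was lower. Over all genes tested, 20% were higher and 22.8% lower, and 42.9% were called in either direction. The 7 other Pol I genes, with 1 higher and 2 lower, were near that share.

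Lists of the other polymerases gave a comparison, to be read beside the 20% of all tested genes that were higher and the 22.8% that were lower. Among 7 subunits particular to Pol II, 2 were higher and 2 lower, with the largest differences in POLR2A (-0.71) and POLR2G (0.59). Among 11 Pol III subunits, 5 were higher and 1 lower, among them POLR3K (0.98), with a list median of 0.04. Among 10 Pol III factors, 4 were higher and 3 lower, with BRF1 at 1.33 and GTF3C3 at -1.13. Of 23 regulators of rDNA transcription, 4 were higher and 6 lower, among them ERCC2 (1.15), a helicase of TFIIH, and MYC (-1.2), which drives ribosome biogenesis genes. The 10 Pol I genes, with 3 higher, 2 lower and a median of 0.05, were not tested against these lists.

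**Figure D3:**
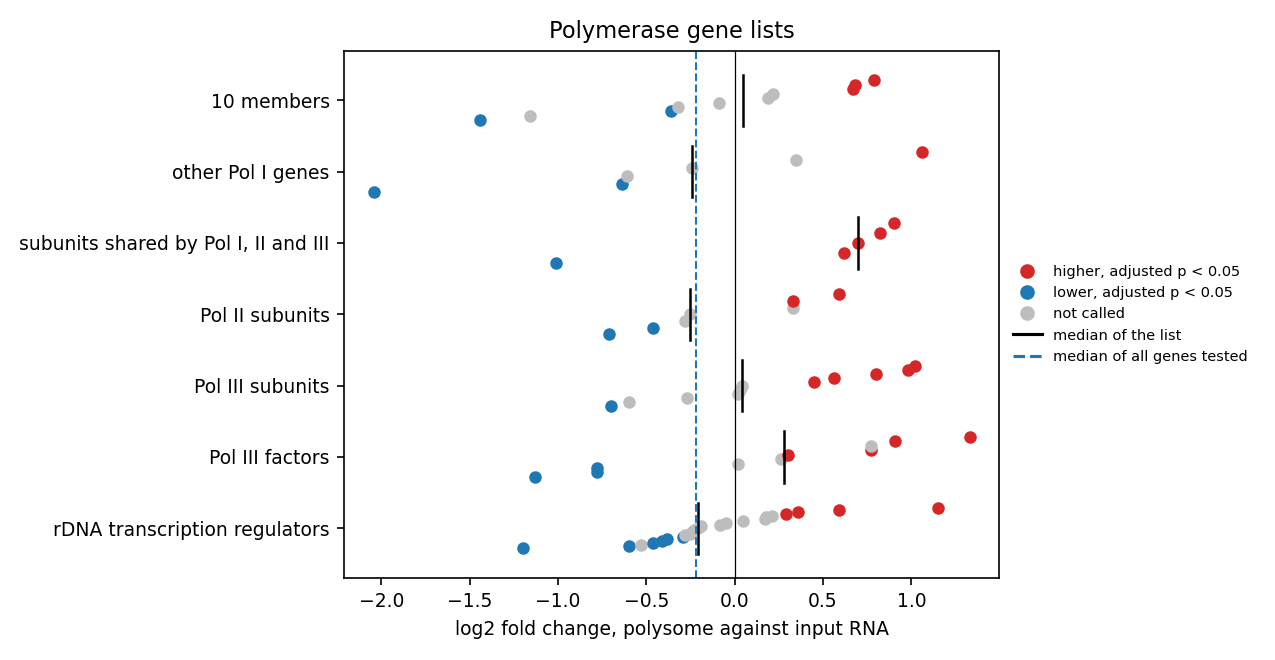
Log2 fold change of polysome against input RNA for each tested gene of 7 lists, with red and blue for genes higher or lower at an adjusted p under 0.05, grey for the rest, a black line at the list's median and a dashed line at the median of all genes. The 4 shared subunits at 0.62 to 0.90 stand together to the right and POLR2K to the left; CAVIN1, which had reads in few libraries, is left out of the plot.

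The label was compared next, to ask whether these mRNAs differed in abundance or in polysome RNA between libraries labelled FBL knockdown and WT. In bulk RNA a change in a level and a change in the number of cells that hold the mRNA cannot be told apart. In input RNA none of the 10 was called by edgeR, none had an unadjusted p under 0.05, and 0% of all genes were called (4.51% had an unadjusted p under 0.05; DESeq2 called 76 genes, none of them among the 10). The log2 differences ran from -0.29 in POLR1E (SE 0.17) to 0.16 in POLR1D (SE 0.16). POLR1E was at 49.0 and 43.4 CPM in control and 38.4 and 37.4 CPM in knockdown libraries, and POLR1A was at 85.1 and 76.5 CPM against 69.4 and 69.8 CPM. Together with POLR1D these were the 3 genes whose 2 control and 2 knockdown input libraries did not overlap, where 41.4% of all genes did not overlap. UBTF was nearly level (-0.03, SE 0.11), as was RRN3 (0.00, SE 0.19).

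In polysome RNA the 10 genes were again not called by edgeR, against 0.248% of all genes higher and 0.63% lower, or 0.879% in either direction. TAF1C and POLR1A had an unadjusted p under 0.05, as did 18.1% of all genes. TAF1C was at 47.5 and 46.4 CPM in control and 28.6 and 34.3 CPM in knockdown polysome libraries, a log2 difference of -0.58 (SE 0.19, adjusted p 0.158, edgeR). POLR1A was at 136.4 and 131.5 CPM against 112.2 and 99.5 CPM, a log2 difference of -0.34 (SE 0.12, adjusted p 0.174, edgeR). The 2 labels did not overlap for POLR1A, POLR1B, POLR1E, UBTF and TAF1C, 5 of 10 genes, against 39% of all genes. POLR1B was the one of these 5 with the higher values in knockdown libraries (38.9 and 35.5 CPM against 30.2 and 32.0 CPM). DESeq2 called 1203 genes over the transcriptome in this comparison, and none of the 10 was among them.

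Polysome association, the change in polysome RNA less the change in input RNA, asked whether the label went with a shift onto or off ribosomes. None of the 10 was called and none had an unadjusted p under 0.05 by edgeR, against 0% called and 6.34% with an unadjusted p under 0.05 among all genes, and DESeq2 called 10 genes over the transcriptome and 0 of the 10 described here. The differences ran from -0.45 in TAF1C (SE 0.27, adjusted p 0.782, edgeR) to 0.37 in POLR1B (SE 0.24, adjusted p 0.793, edgeR). For TAF1A and TAF1B the SE was 0.89 and 0.66, so a shift of several-fold in these low mRNAs could have gone undetected. Smaller shifts could be missed in the other genes too. In simulated counts of genes at 10 CPM or more, 1.5-fold changes were called in 6% (input), 6% (polysome RNA) and 1.5% (association). For 2-fold changes the shares were 73.1%, 55.2% and 34.3%. The simulated libraries had the same mean levels in both fractions apart from a small set of changed genes, so these shares hold for that setting only. In the edgeR fit over all 8 libraries, none of the genes in the other polymerase lists or among the rDNA regulators was called by label in input RNA, polysome RNA or polysome association; the alternatives were not tabulated for these lists.

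**Figure D4:**
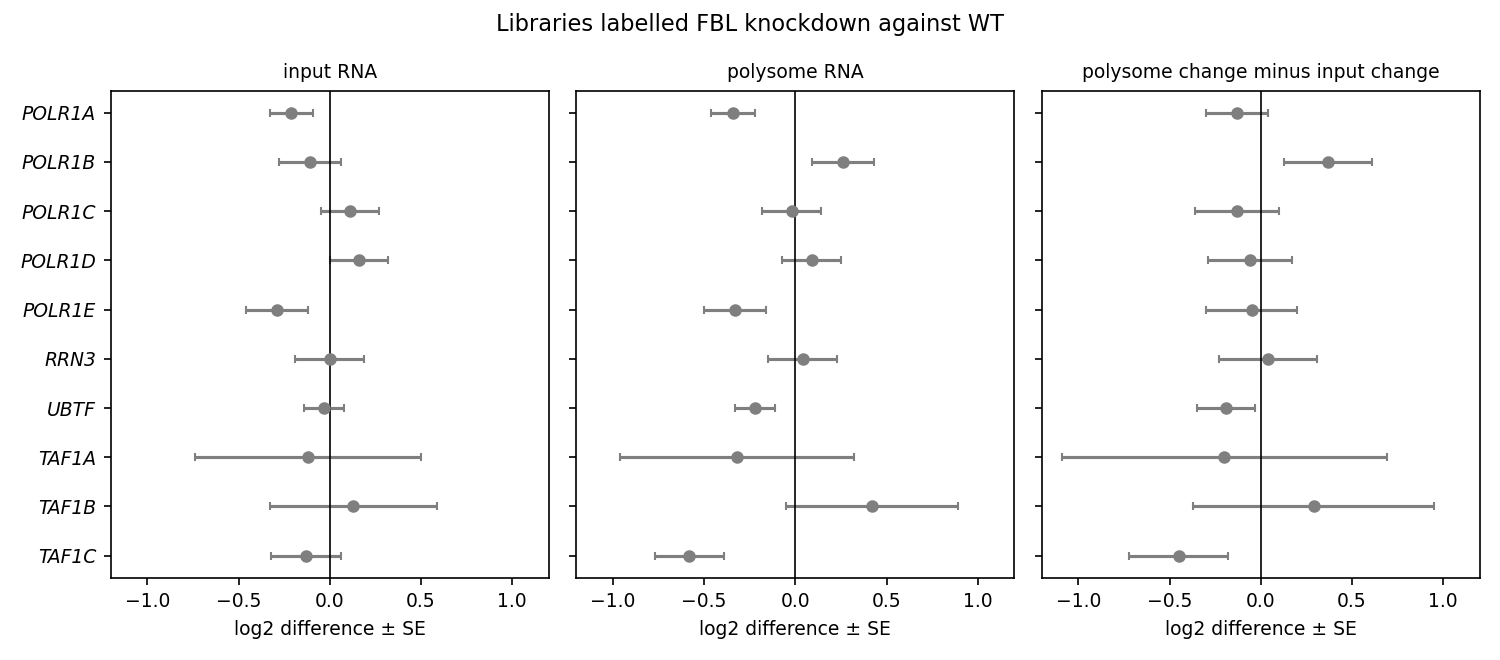
Log2 difference of libraries labelled FBL knockdown minus WT, with its SE, for the 10 genes in input RNA (left), polysome RNA (middle) and as polysome change minus input change (right). No gene passed an adjusted p of 0.05; TAF1C lies farthest to the left in polysome RNA at -0.58, and the widest bars belong to TAF1A and TAF1B, the least abundant of the 10.

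Because FBL differed between libraries numbered 1 and 2 rather than between labels, the 10 genes were also listed by number, as a description without a test. FBL was lower in library 2 than in library 1 of every group, by 1.5 to 1.6 on the log2 scale. No Pol I gene differed to that extent in all 4 groups. RRN3 was the one gene of the 10 that was lower in library 2 of each group, though input control was level (53.4 CPM in both libraries) and the difference was 0.30, 0.39 and 0.34 in input knockdown, polysome control and polysome knockdown. None was higher in library 2 of each group. Over all genes, 12.1% were lower and 9.76% higher in library 2 of all 4 groups. UBTF was at most 0.14 lower in 3 groups and 0.27 higher in polysome knockdown, and POLR1A lay between -0.17 and 0.01. The largest differences by number were in TAF1B (-0.88 in input knockdown, 0.69 in polysome control) and TAF1A (-0.71 in polysome control, 0.50 in input knockdown), and they had both signs.

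**Figure D5:**
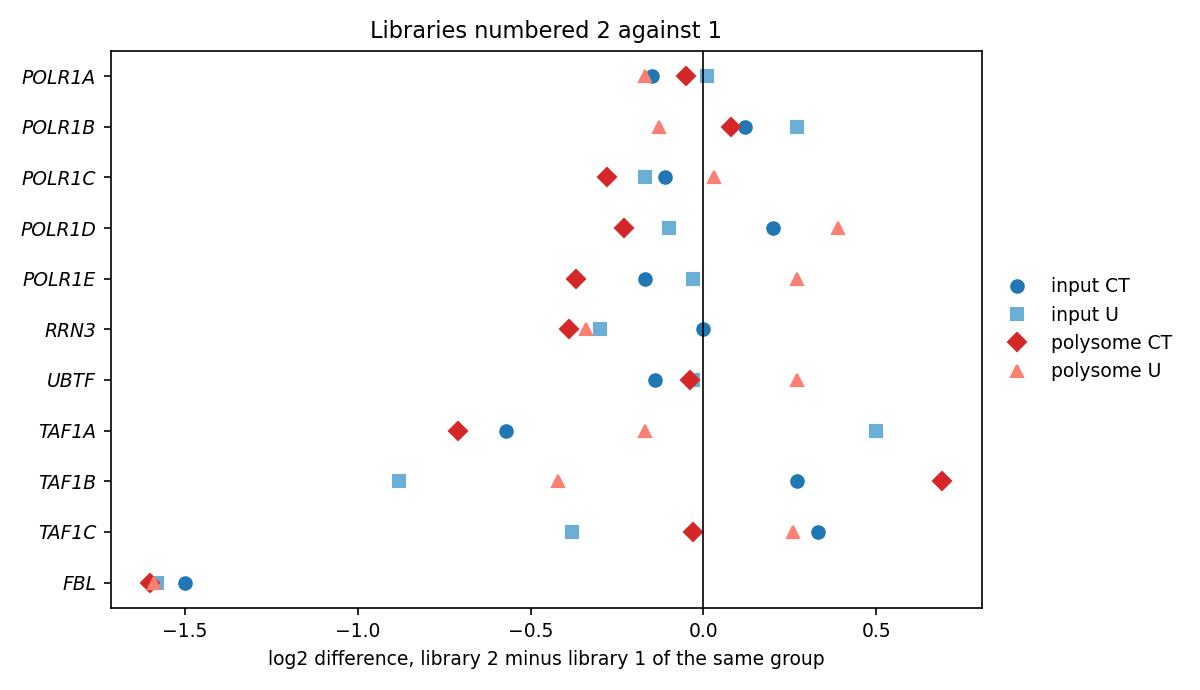
Log2 difference of library 2 minus library 1 within each of the 4 groups, for the 10 genes and FBL. FBL lies between -1.6 and -1.5 in all 4 groups, while the 10 Pol I genes lie on both sides of 0 except RRN3, which has 1 group at 0 and 3 groups between -0.39 and -0.30.

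The summed level of the 10 genes was 492.8 to 531.3 CPM in the input libraries and 600.7 to 737.4 CPM in the polysome libraries. UBTF added the most, from a mean of 154.5 ± 6.87 CPM in input to 267.4 ± 29.9 CPM in polysome RNA (SD, n = 4), followed by POLR1A, from 75.2 ± 7.33 to 119.9 ± 17.1 CPM. When each gene was instead centred on its own mean and the 10 were averaged, the profile was nearly flat, from -0.07 to 0.09 on the log2 scale over the 8 libraries, because genes that were higher and lower in polysomes offset each other. Among the 8151 other genes that averaged 10 CPM or more, the log2 CPM of CETN2, NCAPH, ZBED4, VPS54 and SSBP3 followed that averaged profile most closely, with Pearson's r of 0.924 to 0.943 over the 8 libraries, given as a description of likeness in so flat a profile.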

How the data were processed

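The authors deposited raw read counts per gene for 8 libraries. Per the submitters' processing notes, reads were trimmed with Trimmomatic 0.38, aligned with Bowtie2 (no version named) to GRCh38 and counted with HTSeq 0.11.2. The annotation release, read layout and strand setting are not stated in these sources. The aligner does not split reads over introns, which can lower the counts of genes with many junctions. File lines that name no gene held 13.19% to 14.95% of the reads and were left out.

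Counts were tested with edgeR 4.0.16 in R 4.3.3: TMM scaling, filterByExpr (16503 of 58395 genes kept), a term for each of the 4 groups over all 8 libraries (4 residual degrees of freedom), the quasi-likelihood F test, and Benjamini-Hochberg adjustment over all genes tested with a threshold of 0.05. Levels are CPM after TMM. Lysate ratios add 0.5 CPM. The script was tested on simulated data. Positions, exon lengths and GC content came from GENCODE 29 on GRCh38, which held 58275 of the identifiers. Sequences came from RefSeq. The 10 genes, the other gene lists and the comparisons were chosen with earlier results of these data known. The genes named beyond the 10 are FBL, called genes of the other Pol I and shared subunit lists, the 2 largest called differences of each other polymerase or regulator list, RRN3 pseudogenes, and the 5 genes most like the averaged profile; POLR1G, TBP, TTF1 and CAVIN1 were named to account for the whole list. One gene that this rule names is not reported here. Libraries of a group differed by a chi-square of 22.1 to 48.7 per degree of freedom over genes, more than sampling noise. Each counted as 1 sample, though this spread cannot tell separate infections from repeats of the same cells.

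Input and polysome libraries of the same title come from the same lysate, per the labels' protocols. Their deviations correlated across genes (r = 0.32 in control and 0.36 in knockdown lysates, 8159 genes). Input and polysome deviations of different lysates correlated at 0.28 in each pairing, nearly as much, so these values alone do not show the pairing. Between labels only a library number is shared. Alternatives were other scalings, filters and tools (DESeq2 1.42.0 and limma 3.58.1), GC and length correction, the block, only the compared libraries, and each library left out in turn.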

Additional observations from a re-analysis of the deposited data

How the results depend on the processing

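UBTF, POLR1A and POLR1C stayed higher in polysome RNA and past the threshold in all 17 alternatives run, with log2 fold changes of 0.65 to 0.85, 0.56 to 0.70 and 0.57 to 1.09. The number of the 10 genes called in that comparison was 5, and 4 to 7 under the alternatives, while calls over all genes went from 7072 to between 5537 and 7763. By label, 0 of the 10 were called in input RNA, polysome RNA or polysome association under any of 17 alternatives each. TAF1A and TAF1B could not be fitted under the filter at a mean of 10 CPM. With GC and length correction POLR1D reversed to 0.14 and RRN3 to 0.63 while the median of all genes went from -0.22 to 0.28; relative to that median POLR1D was 0.13 below before and 0.14 below after. TAF1B was called in 14 of 16 alternatives, TAF1A in 3 of 16, POLR1D in 10 of 17 and RRN3 in 8 of 17. The causes were not tested. The RRN3 calls did not share a direction. It was higher with GC and length correction, alone (0.63) or with the lysate block (0.62), and lower in the other fits that called it. The range of its adjusted p below covers both directions. RRN3 passed without a filter (adjusted p 0.0202) and with the 10 CPM filter (0.0128), both edgeR. Over all alternatives the adjusted p (edgeR, DESeq2 or limma) was 0.00231 to 0.473 for POLR1D, 1.11e-06 to 0.202 for RRN3, 0.0411 to 0.969 for TAF1A and 0.000252 to 0.326 for TAF1B.

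With the lysate as a replicate block, RRN3 was called, as given above, and no other call among the 10 changed. With the block and GC and length correction together, POLR1D was 0.13 and RRN3 0.62, the median of all genes was 0.20, and 6 of the 10 genes were higher and 1 lower, against 5260 higher and 1313 lower of all 16503 genes. For the label comparisons the block was the library number, which ties the libraries by number alone: 0 of the 10 were called, while calls over all genes went from 0 to 66 in input RNA and from 145 to 1053 in polysome RNA. The deviations by number correlated at 0.48 between labels in input and at 0.20 in polysome RNA.

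Counts over all genes by label moved more than those of the 10. In polysome RNA 41 were higher and 104 lower. Upper quartile scaling gave 53 and 48, relative log expression 47 and 76, the 10 CPM filter 195 and 131, no filter 531 and 586, DESeq2 508 and 695, limma-voom 75 and 222. GC and length correction, or only the 4 polysome libraries, gave 0. Leaving out a library gave 0 (without polysome control 2) to 1455 (without polysome knockdown 1). In input RNA 0 became 83 without a filter, 76 with DESeq2, 3 with limma-voom and at most 1 without a library. In polysome association 0 became 55 without a filter, 10 with DESeq2, 9 with the lysate block, 54 with the block and GC and length correction, and at most 55 without a library. Depth limits TAF1A most, with 24 reads in polysome knockdown 2.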
